A study of Mus musculus with 118 samples.

Results

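The genes described here are 10 genes of the actin cytoskeleton, read in single SOM+ interneurons of the mouse cortex: the actin bundler *Fscn1*, the membrane-linked actin binder *Marcks*, the monomer-binding genes *Tmsb4x*, *Tmsb10*, *Pfn1* and *Pfn2*, the filament-binding genes *Cfl1* and *Cotl1*, and the actins *Actb* and *Actg1*. They are 10 of 23998 gene symbols in the table of counts, and each has 1 row. The group was chosen by name, with measured values of these cells known: *Fscn1* and *Cotl1* were selected on their area differences in L4 and L5, so those differences are a description and support nothing. The cells came from SOM-Cre/Ai9 mice, in which any cell that expresses or once expressed somatostatin carries tdTomato. By the study's methods the mice were adults of both sexes, and the labels give no age or sex per cell. All groups share this genotype and received no treatment. They differ in area (V1, primary visual cortex, or S1, primary somatosensory cortex) and in layer (L4 or L5). RNA was read by Patch-seq, in which the cell content is drawn into the pipette after recording and turned into cDNA without molecular identifiers.

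In L4, 42 of 44 V1 cells and 34 of 39 S1 cells were kept, and in L5 17 of 19 V1 cells and 16 of 16 S1 cells. To be kept, a cell needed at least 1500 genes above 0, an *Sst* read, and a *Slc17a7* count that did not exceed the sum of *Gad1* and *Gad2*. The total count per kept cell ranged from 97904 to 3295232. These genes chose the cells, so their levels are a description of the kept cells and no check of the label. The median of *Gad1* plus *Gad2* lay between 2152 and 3112 CPM (counts per 1e6 counts of the cell) over the 4 groups, and that of *Sst* between 1007 and 1739 CPM. As the animal of a cell is not labelled, a group of 1 area and layer counts as 1 sample, and cells were not tested against each other. The labels carry 9 dates and name no series. The dates were split here by calendar into 2 series, dates 1 to 6 and dates 7 to 9, and all L5 cells are of the first. Date 1 holds V1 cells only and date 9 S1 cells only. Spread is given as the SD over cells or over dates, and dates need not be separate animals.

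Actin exists as free monomers and as filaments that grow at one end and are taken apart at the other. Thymosins hold monomers in reserve, profilins hand them to growing filaments, cofilin severs old filaments, and fascin ties filaments into the straight bundles of filopodia. In neurons these proteins are known for their part in growth cones, dendritic spines and presynaptic terminals.

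Levels between genes were compared per transcript length, as the deposited RPKM (reads scaled to transcript length and sequencing depth). Over the kept cells the median RPKM was 813 for *Actb*, 641 for *Tmsb4x*, 355 for *Pfn2*, 193 for *Cfl1* and 72.6 for *Pfn1*. It was 48.2 for *Actg1*, 43.1 for *Fscn1*, 13.2 for *Marcks*, 6.30 for *Tmsb10* and 3.75 for *Cotl1*. *Actb* and *Tmsb4x* were thus among the most abundant messages of these cells, above 99.8% and 99.7% of the genes past the count filter, while *Cotl1* stood above 54.3% of them.

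Members of the same family were unequal in the same cell. *Actb*, the beta actin, exceeded *Actg1*, the gamma actin, in every kept cell, and the ratio of their median RPKM was 16.9. *Tmsb4x* exceeded *Tmsb10*, the other beta thymosin measured, in every kept cell, with a ratio of medians of 101.8. *Pfn2*, the profilin best known from neurons, exceeded *Pfn1*, the widely expressed profilin, in 93 of the kept cells, with a ratio of 4.89. The order *Pfn2* above *Pfn1* held in 33 of 42 V1 and 30 of 34 S1 cells of L4, and in 14 of 17 V1 and 16 of 16 S1 cells of L5.

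The rank of *Actg1* and *Tmsb10* carries a limit of counting. Of the 75-base stretches of the *Actg1* transcripts (the read length of the study), 33.1% also occur in transcripts of 9 other genes, mostly processed pseudogenes such as Gm12715. The share was 19.25% for *Tmsb10*, 2.81% for *Cfl1*, 1.58% for *Actb* and 0 for the other 6 members. The levels of *Actg1* and *Tmsb10* are therefore uncertain, since reads that match several places may have been lost or assigned elsewhere.

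**Figure D1:**
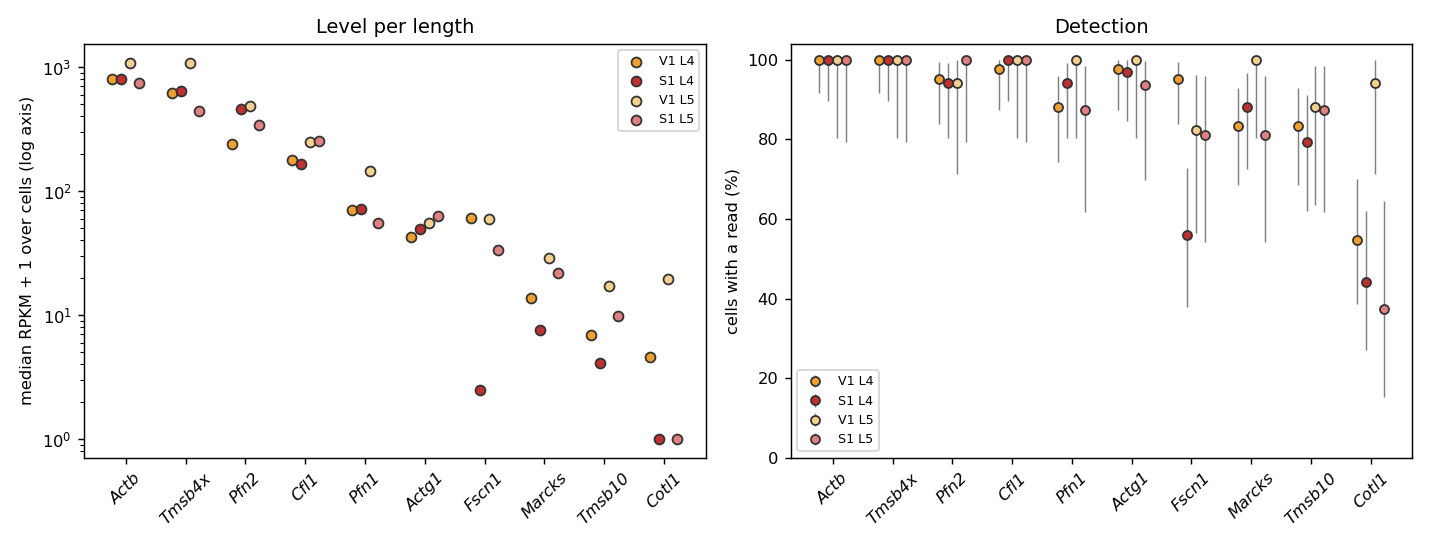
Left, median deposited RPKM plus 1 over the kept cells of each group on a log axis, for the 10 genes in order of their median over all cells. Right, percent of cells with at least 1 read, with exact 95% binomial intervals. *Fscn1* is lowest in S1 L4 in both panels. *Cotl1* has a median of 0 in S1 L4 and S1 L5, and its detection is highest in V1 L5, while V1 L4 and S1 L4 have overlapping intervals. *Actb* and *Tmsb4x* had a read in every cell.

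*Fscn1* encodes fascin, which crosslinks actin filaments into tight parallel bundles. The gene lies on chromosome 5 at 142960343 to 142973185, plus strand (GRCm38). In L4 its level ranged from 0 to 519 CPM in V1, with a median of 150.2, and from 0 to 383 CPM in S1, with a median of 3.89. In L5 it ranged from 0 to 555 CPM in V1, with a median of 150.9, and from 0 to 217 CPM in S1, with a median of 81.2. S1 L4 was the low group, although its cells overlapped with those of every other group.

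In L4 a *Fscn1* read was found in 40 of 42 V1 cells (95.2%, exact binomial interval 83.8 to 99.4) and 19 of 34 S1 cells (55.9%, 37.9 to 72.8). In L5 it was found in 14 of 17 V1 cells (82.4%, 56.6 to 96.2) and 13 of 16 S1 cells (81.25%, 54.4 to 96.0). These intervals treat each cell as an independent draw and leave out the spread between animals and dates, so they do not test the groups. When each cell was thinned to 250000 reads, the L4 counts of cells were again 40 of 42 and 19 of 34. In L4, 33 of 42 V1 and 9 of 34 S1 cells were above 100 CPM. Among the S1 L4 cells with a read, the median was 88.3 CPM, beside 159.4 CPM among the V1 L4 cells with a read. The low mean of S1 L4 thus combined many cells without a read with some cells at the level of V1. Date 9, with S1 cells only, had a read in 2 of 7 cells, and date 1, with V1 cells only, in 3 of 3. Area and date are therefore partly mixed in these counts.

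On the log2(CPM + 1) scale the mean of *Fscn1* was 6.95 ± 1.90 in V1 L4, 5.78 ± 3.07 in V1 L5, 5.02 ± 2.85 in S1 L5 and 3.33 ± 3.42 in S1 L4 (SD over cells). Neighbours in this order differed by less than the SD over cells. The difference of S1 minus V1 in L4 was -3.62 ± 1.77 (SD over 5 dates with at least 2 cells of each area). It was -1.95, -3.73, -4.40, -3.76 and -0.07 on dates 2, 3, 5, 7 and 8, with a mean of -2.78. On date 8 the S1 mean was 7.44 and the V1 mean 7.51, so the sign held there by a margin far below the spread, and that date had 2 S1 cells. As the log2 ratio of pooled CPM (70.8 in S1 L4 and 208 in V1 L4) the difference was -1.56. With medians in place of means it was -4.95, and date 8 then had the opposite sign.

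In L5 the *Fscn1* difference of S1 minus V1 was -0.76 ± 1.61 (SD over 4 dates), lower in S1 on 3 dates and higher by 1.33 on date 3. The area difference of L5 was therefore smaller than its spread over dates. Between layers, the difference of L5 minus L4 on the dates that hold both was -0.22 ± 2.42 (SD over 5 strata of date and area). It was negative in both V1 strata, at -2.81 and -3.05, and positive in all 3 S1 strata, at 2.24, 1.23 and 0.52.

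Bases upstream of the *Fscn1* start are shown because this gene had the largest area difference of the 10 in L4, beside those of *Actg1*, whose mean differed by -0.01 there. Both are RefSeq sequences of GRCm38.p6, 5′ to 3′ along the gene, from chr5:142960255-142960342 (plus strand) and chr11:120348543-120348595 (minus strand). Each begins 100 bases before the RefSeq start and ends just before the GENCODE start, which is further upstream. Capitals in *Fscn1* mark TGACGTCA, the cAMP response element, and TATAAA, the TATA box. Capitals in *Actg1* mark a CArG box, the motif of serum response factor.
Fscn1: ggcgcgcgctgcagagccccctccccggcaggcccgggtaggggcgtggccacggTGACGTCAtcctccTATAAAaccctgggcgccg
Actg1: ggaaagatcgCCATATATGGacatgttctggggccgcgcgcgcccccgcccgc
The element TGACGTCA reads the same on both strands and lay 45 to 38 bases before the RefSeq start, and the TATA box 31 to 26 bases before it. The CArG box, also the same on both strands, lay 90 to 81 bases before the *Actg1* start. Searched on both strands of 32851 promoter windows of 300 bases, TGACGTCA was in 1.79%, TATAAA in 13.6% and the CArG box in 1.63%. The table of promoters holds 7 of the 10 genes, without *Marcks*, *Cotl1* and *Actb*, and none of the other 5 had one of these motifs. A match describes letters, not binding.

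*Marcks* encodes a protein that binds actin and the plasma membrane and is released from it by protein kinase C. In L4 its median was 49.1 CPM in V1 and 26.8 in S1, and single cells reached 562 and 260 CPM. In L5 the median was 119.8 CPM in V1 and 83.1 in S1, and single cells reached 348 and 472 CPM. The L5 groups had the higher medians and all 4 groups overlapped. A read was found in 35 of 42 V1 and 30 of 34 S1 cells of L4, and in 17 of 17 V1 and 13 of 16 S1 cells of L5. On the log2 scale L5 minus L4 was 1.83 ± 1.90 (SD over 5 strata), higher in L5 in 3 strata and lower in 2, so the sign changed between strata. The mean over the strata was 0.72. Date 6 had 1 L4 cell of each area, both without a *Marcks* read, which count in 1.83 but form no stratum. The area difference, S1 minus V1, was -0.42 ± 1.09 in L4 and -0.98 ± 1.73 in L5, both below the spread over dates. In L4 S1 was higher on 3 dates and lower on 2, and the mean within dates was 0.15. In L5 S1 was higher on 2 dates and lower on 2.

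*Tmsb4x*, the X-linked thymosin beta 4 that sequesters actin monomers, had a read in every kept cell. In L4 its median was 430 CPM in V1 and 399 in S1, with the highest cells at 2540 and 1006 CPM. In L5 the median was 698 CPM in V1 and 289 in S1, with the highest cells at 3232 and 1325 CPM. V1 held the upper end in both layers, and the groups overlapped. The highest V1 L4 cells stood at 11.31, 10.78, 10.29, 10.22 and 10.18 as log2(CPM + 1). The sum of 12 microglia genes in these cells was 11.02, 11.69, 10.97, 10.78 and 10.72 on the same scale. In V1 L5 the highest cells, at 11.66, 11.13, 10.81 and 10.58, had sums of 12.13, 12.38, 0 and 11.61. In S1 L4 the highest cells, at 9.98, 9.90, 9.63, 9.61 and 9.49, had sums of 8.54, 10.03, 0, 10.19 and 9.68. In S1 L5 the highest cells, at 10.37, 9.93, 9.90 and 9.53, had sums of 4.05, 9.05, 5.58 and 10.41. The part of microglia RNA in the upper end of each group was not tested. Between areas the difference was -0.36 ± 0.92 in L4, with 2 dates higher and 3 lower. In L5 it was -0.84 ± 0.91 and lower in S1 on 4 of 4 dates, from -0.12 on date 4 to -2.29 on date 3.

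*Tmsb10*, thymosin beta 10, was near the limit of detection. Its median was 2.77 CPM in V1 and 1.50 in S1 in L4, and 7.22 and 4.33 CPM in L5. It did not pass the filter of at least 32 counts in at least 10 cells in any comparison. All 4 groups overlapped. Thinning to equal depth left a read in 23 of 42 V1 and 11 of 34 S1 cells of L4, and in 12 of 15 V1 and 10 of 15 S1 cells of L5. The area difference was -0.48 ± 0.87 in L4 and -0.66 ± 0.46 in L5, where S1 was lower on 4 of 4 dates.

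*Pfn1* encodes profilin 1, which loads monomers for filament growth. In L5 it ranged from 9.56 to 484 CPM in V1, with a median of 120.8, and from 0 to 106.5 CPM in S1, with a median of 44.9. In L4 the medians were 59.9 CPM in V1 and 61.2 CPM in S1. V1 L5 was the high group over all kept cells, with 10 of 17 cells above 100 CPM beside 2 of 16 in S1 L5. The cells of both L5 groups overlapped. On the dates that hold both layers, L5 minus L4 in V1 was -0.29, so V1 L5 was not above V1 L4 there. S1 minus V1 in L5 was -1.96 ± 0.98 (SD over 4 dates), with -3.39, -1.08, -2.02 and -1.66 on dates 3 to 6. As a log2 ratio of pooled CPM it was -0.94. In L4 the difference was 0.56 ± 1.35, with 2 dates higher and 3 lower.

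*Pfn2* encodes profilin 2. Its median was 488 CPM in V1 and 906 in S1 in L4, and 999 and 669 CPM in L5. V1 L4 had the lowest median, and all groups overlapped. The area difference was 0.55 ± 1.86 in L4 and 0.20 ± 1.34 in L5. Within dates the L4 difference ran from -2.10 on date 2 to 2.37 on date 8, so its sign depended on the date.

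*Cfl1*, cofilin 1, severs filaments and returns monomers to the pool. Its median was 205 CPM in V1 and 185 in S1 in L4, and 301 and 298 CPM in L5, and all but 1 of the kept cells had a read. The groups overlapped over most of their range. The area difference in L4 was 0.05 ± 0.75. In L5 it was -0.33 ± 0.19, with S1 lower on 4 of 4 dates by the means, while the log2 ratio of pooled CPM was 0.01.

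*Cotl1* encodes coactosin-like protein 1, a filament-binding relative of cofilin that is also well known from blood and immune cells. It is on chromosome 8 at 119809222 to 119840544, minus strand (GRCm38). In L5 it ranged from 0 to 235 CPM in V1, with a median of 29.5, and from 0 to 296 CPM in S1, with a median of 0. In L4 it ranged from 0 to 143.3 CPM in V1, with a median of 5.67, and from 0 to 80.6 CPM in S1, with a median of 0. V1 L5 was the high group, yet the single highest value was in S1 L5, in a cell with 38 *Cotl1* reads in a total of 128379.

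In L5 a *Cotl1* read was found in 16 of 17 V1 cells (94.1%, exact binomial interval 71.3 to 99.9) and 6 of 16 S1 cells (37.5%, 15.2 to 64.6). In L4 it was found in 23 of 42 V1 cells (54.8%, 38.7 to 70.2) and 15 of 34 S1 cells (44.1%, 27.2 to 62.1). After thinning, 13 of 15 V1 L5 cells and 4 of 15 S1 L5 cells had a read. On the log2 scale the mean was 4.75 ± 2.18 in V1 L5, 2.63 ± 2.62 in V1 L4, 2.28 ± 2.69 in S1 L4 and, lowest, 1.65 ± 2.55 in S1 L5 (SD over cells). Only the step from V1 L5 to V1 L4 came close to the SD over cells, and no step exceeded it.

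S1 minus V1 for *Cotl1* in L5 was -3.10 ± 1.92 (SD over 4 dates), at -4.59, -1.49, -1.83 and -5.29 on dates 3 to 6. On date 3 none of 3 S1 cells had a read and 5 of 5 V1 cells had one, and on date 6 it was 1 of 3 S1 cells and 5 of 5 V1 cells. With a pseudocount of 10 CPM the difference was -1.44, a measure of how far the value of a low gene rests on the pseudocount. In L4 the difference was -0.34 ± 2.22, with 2 dates higher and 3 lower. With medians it was -2.72 in L4, since the S1 median was at 0.

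*Actb* encodes beta actin. It lies on chromosome 5 at 142903115 to 142906754, minus strand (GRCm38), on the same chromosome as *Fscn1*. Its median was 1397 CPM in V1 and 1485 in S1 in L4, and 1962 and 1390 CPM in L5, and the lowest cell of all still had 165.2 CPM. The area difference was 0.13 ± 0.61 in L4, higher in S1 on 4 of 5 dates. In L5 it was -0.65 ± 0.18, at -0.94, -0.70, -0.64 and -0.51 on dates 3 to 6. That difference was larger than its spread over dates, although the cells of V1 and S1 overlapped.

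*Actg1* encodes gamma actin. Its median was 78.2 CPM in V1 and 89.0 in S1 in L4, and 101.3 and 111.5 CPM in L5. The area difference was -0.01 ± 0.81 in L4 and -0.77 ± 0.85 in L5, where S1 was lower on 3 of 4 dates. With medians the L5 difference was 0.14, so its sign depended on the summary.

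**Figure D2:**
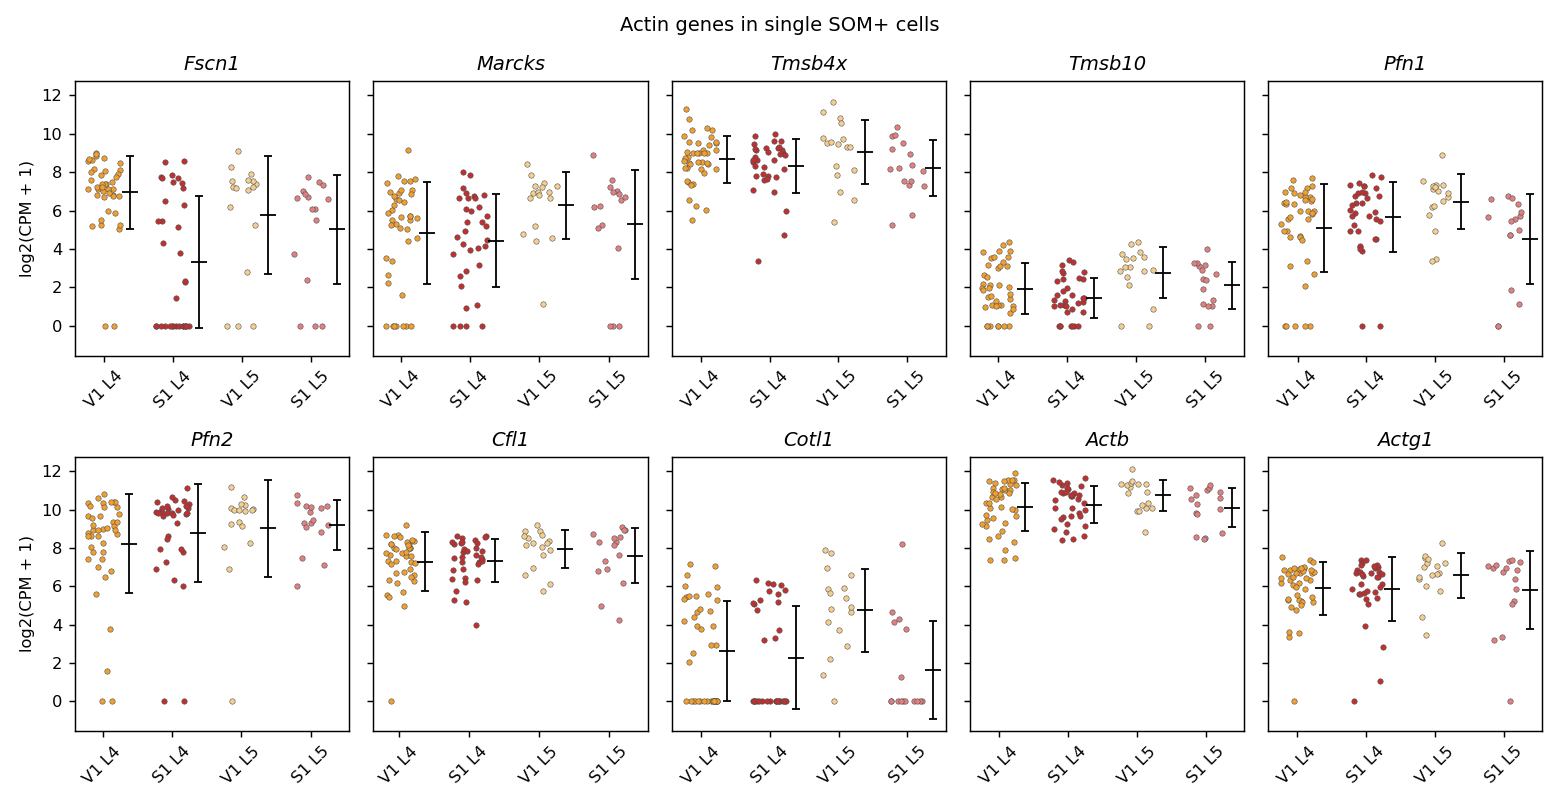
Level of each of the 10 genes in each kept cell, as log2(CPM + 1), by area and layer. Points are cells and the black marks are the mean ± SD over cells. *Fscn1* has 15 of 34 S1 L4 cells at 0 beside 2 of 42 in V1 L4, and *Cotl1* has 10 of 16 S1 L5 cells at 0 beside 1 of 17 in V1 L5.

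A gene was called in a comparison when its mean differed by at least 1 on the log2 scale with the same sign on every date that held at least 2 cells of each group. In L4, 1 of the 9 members past the filter was called (*Fscn1*, lower in S1), beside 3.2% of all 9201 genes called and 1.89% called lower in S1. *Fscn1* was chosen for this difference, so nothing is read from the count. The median difference was -0.01 over the 9 members and 0.01 over all genes. The remaining 8 lay between -0.42 and 0.56, each below its SD over dates.

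In L5, 2 of the 9 members past the filter were called (*Pfn1* and *Cotl1*, both lower in S1). Of all 6402 genes 12.7% were called and 4.15% were called lower in S1. *Cotl1* was chosen for this difference, which leaves *Pfn1* as 1 of 8. Of the 9 members other than *Cotl1*, 8 were lower in S1, all but *Pfn2*, beside 40.4% of all genes. Lower in S1 on every date were 5 of these 9 (*Tmsb4x*, *Tmsb10*, *Pfn1*, *Cfl1* and *Actb*), beside 6.34% of all genes. The median difference was -0.76 over the 9 and 0.24 over all genes. *Tmsb10* is among the 9 although it did not pass the filter. The members share cells and totals, so these counts describe 33 cells and are not separate observations. Without date 4 the calls in L5 rose to 4, with *Tmsb4x* and *Actg1* added.

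Between layers no member was called, beside 4.84% of all 8124 genes. At an absolute size of 1 or more stood *Marcks* alone, which was at 0.72 as the mean over strata. *Pfn1* was just inside the limit at -0.995 ± 1.39. Without date 3, *Pfn1* was called, lower in L5. The remaining 8 lay between -0.56 and 0.04. Each of these values is the mean of a V1 and an S1 difference, which can have opposite signs. For *Cotl1* they were 1.18 in V1 and -1.89 in S1, and for *Fscn1* -1.92 in V1 and 1.48 in S1. A gene with opposite signs in the areas could not be called.

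**Figure D3:**
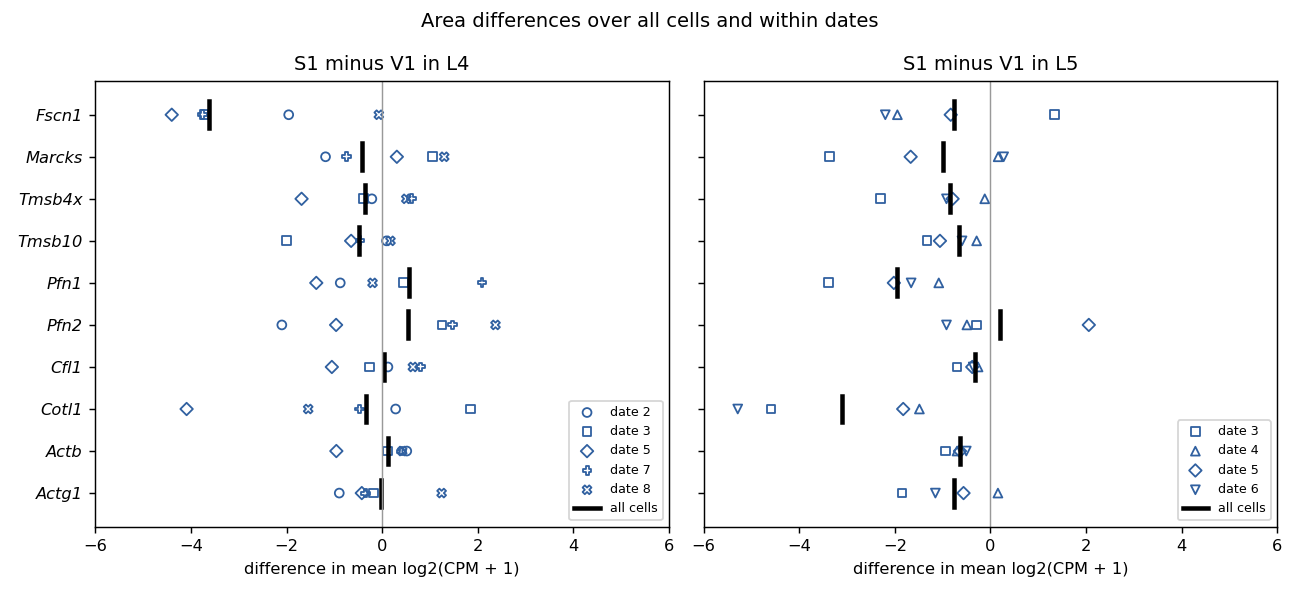
Difference in mean log2(CPM + 1), S1 minus V1, for each of the 10 genes in L4 (left) and L5 (right). Open symbols are single dates with at least 2 cells of each area and black bars the difference over all kept cells. In L4 *Fscn1* is left of 0 on 5 of 5 dates, with date 8 at -0.07, and in L5 *Cotl1* and *Pfn1* are left of 0 on 4 of 4 dates.

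RNA of other cells was present in these samples. The 12 microglia genes summed in L4 to a median of 138.3 CPM in V1 (range 0 to 3301) and 213 in S1 (0 to 2297). In L5 the median was 30.04 CPM in V1 (0 to 5324) and 67.2 in S1 (0 to 1360). All 12 had reads in each group except S1 L5, where 11 of 12 had reads and *P2ry12* was at 0. Pooled over cells, V1 L5 stood highest at 802 CPM beside 210 in S1 L5. On date 3 the median sum was 1817 CPM in V1 L5 and 134.2 in S1 L5. It was 0.64 and 14.8 CPM on date 4, 16.4 and 127.1 CPM on date 5, and 30.04 and 731 CPM on date 6.

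The member differences, S1 minus V1, were also taken in cells with 0 counts on the microglia list, which are few. In L4 (6 S1 and 8 V1 cells) *Fscn1* stood at -3.68. *Pfn1* was at -1.29 and *Pfn2* at -1.36, where over all cells both were above 0, and *Actg1* was at -1.52. *Marcks* was at -1.43, *Cotl1* at -1.31, *Actb* at -0.42, *Tmsb10* at -0.32, *Tmsb4x* at 0.21 and *Cfl1* at 0.34. The L4 values of members other than *Fscn1* thus changed with the choice of cells, several of them in sign. *Fscn1* was selected on its L4 difference in cells that include these, so its value here supports nothing.

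In L5 (3 S1 and 3 V1 cells) *Cotl1* stood at -4.15, *Pfn1* at -3.92, *Marcks* at -2.78, *Fscn1* at -2.06 and *Actb* at -2.01. *Cfl1* was at -1.42, *Pfn2* at -1.04, *Tmsb4x* at -0.72, *Actg1* at -0.42 and *Tmsb10* at -0.22. *Actb*, *Cfl1*, *Pfn1* and *Marcks* differed more there than over all cells, by more than their SD over dates. In cells below 10 CPM on the list (3 S1 and 6 V1 cells) *Cotl1* was at -2.01, *Pfn1* at -4.00, *Actb* at -1.62, *Tmsb4x* at -0.97, *Actg1* at 0.30 and *Pfn2* at 1.11, so the last 2 depended in sign on which of these cells were taken. No test was run on these small sets of cells, and the part of microglia RNA in the differences was not tested further. Among the kept cells the microglia sum had a Pearson r of 0.27 with *Tmsb4x*, 0.22 with *Pfn1*, 0.20 with *Actb*, 0.09 with *Cotl1* and -0.09 with *Fscn1*, all on log scales.

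A single V1 L5 cell of date 3 held the highest level of its group for 5 of the 10 genes (*Tmsb4x*, *Pfn1*, *Pfn2*, *Cotl1* and *Actg1*). It had a total of 421469 counts, 1978 genes above 0 and 4494 CPM on the microglia list. Without it, an alternative added after seeing the data, S1 minus V1 in L5 was -2.90 for *Cotl1*, -1.80 for *Pfn1* and -0.68 for *Tmsb4x*, and the same 2 members were called.

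The 6 oligodendrocyte genes also moved with area. In L4 their sum had a median of 70.0 CPM in V1 (range 0 to 3717) and 628 in S1 (0 to 9510). In L5 it had a median of 111.2 CPM in V1 (0 to 3870) and 312 in S1 (0 to 5445). All 6 had reads in both S1 groups, while *Mag* and *Cldn11* were at 0 in V1 L4 and *Mog* and *Cldn11* in V1 L5. Its part in the differences of *Fscn1* and *Cotl1* was not tested. The astrocyte list had a median of 64.6 CPM in V1 and 104.5 in S1 in L4, and of 10.2 and 44.8 CPM in L5, and the endothelial and mural list a median of 0 in all 4 groups.

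**Figure D4:**
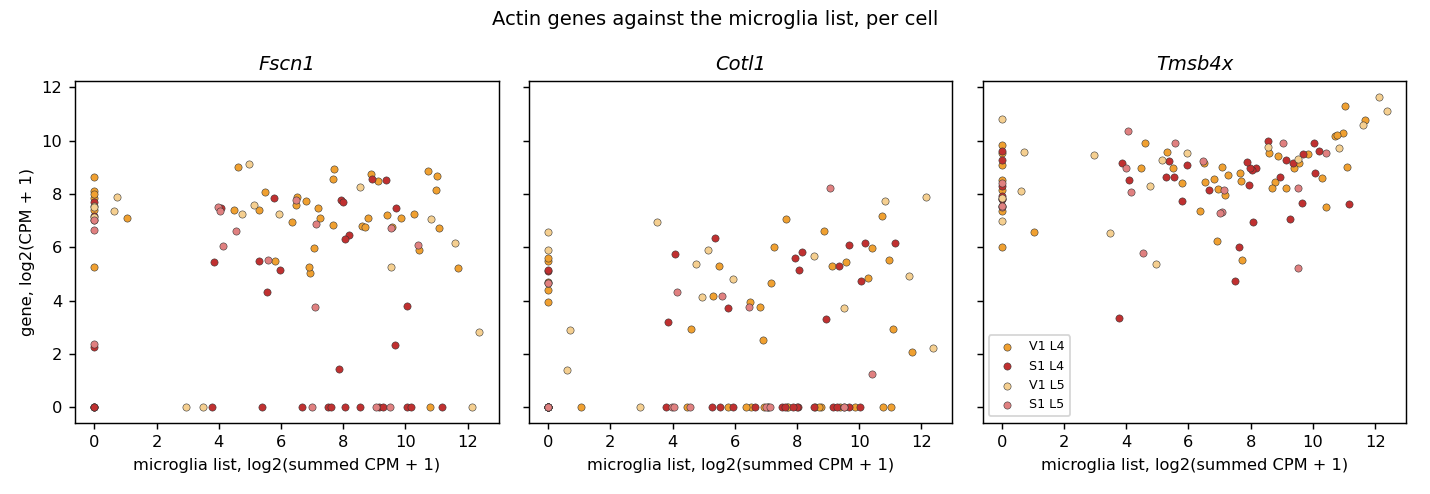
Level of *Fscn1*, *Cotl1* and *Tmsb4x* in each kept cell, as log2(CPM + 1), against the log2 of the summed CPM of the 12 microglia genes plus 1, coloured by area and layer. *Tmsb4x* has a Pearson r of 0.27 with the microglia sum over the kept cells, and cells without a *Fscn1* or *Cotl1* read lie along the whole axis.

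Across the kept cells the 10 genes were positively related, which describes cells that share dates, groups and depth. All 45 pairs had a Pearson r above 0, from 0.09 to 0.66, with a median of 0.27, and 11 pairs reached 0.4. The highest was 0.66 for *Cfl1* with *Actb*, followed by 0.56 for *Pfn1* with *Actb*, 0.51 for *Tmsb4x* with *Actb* and 0.51 for *Pfn2* with *Actg1*. After each date and group was centred on its own mean the range was -0.11 to 0.65 and the median again 0.27. The level of a gene also moved with the number of genes found in the cell, with an r of 0.49 for *Actg1*, 0.46 for *Actb*, 0.45 for *Fscn1* and 0.05 for *Tmsb4x*.

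**Figure D5:**
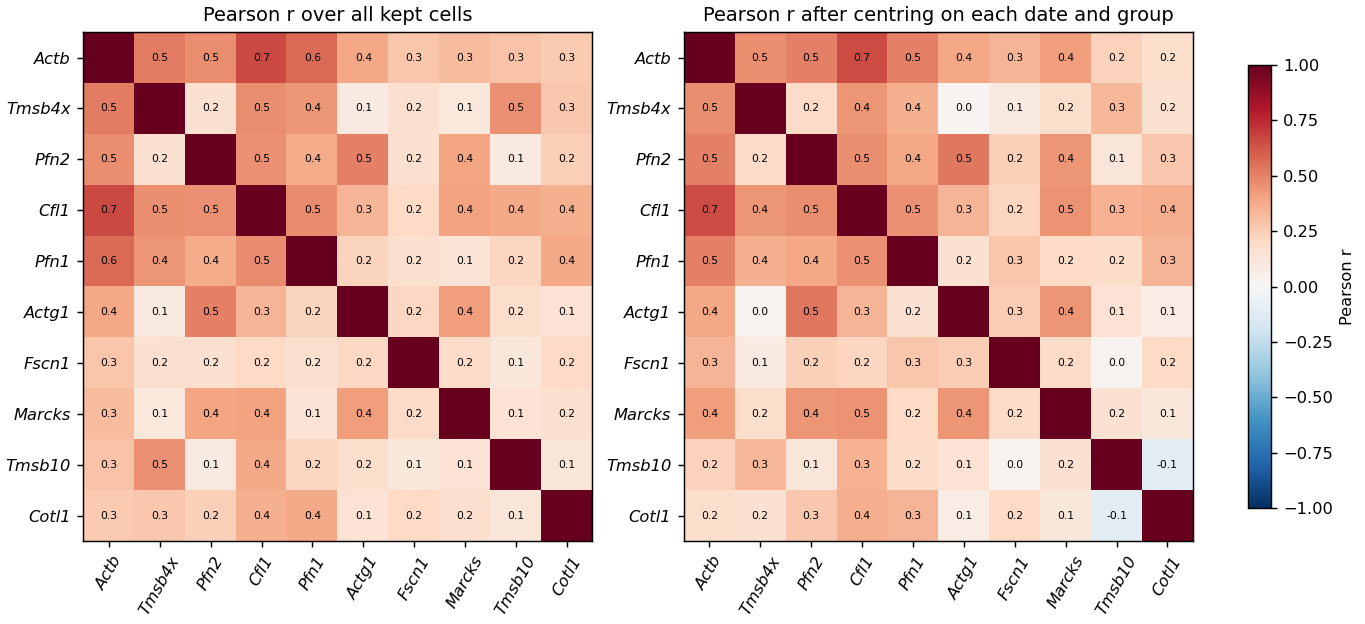
Pearson r of log2(CPM + 1) between the 10 genes over the kept cells (left) and after centring each date and group (right), in order of median RPKM. *Cfl1* with *Actb* has the highest value in both, while *Fscn1* and *Cotl1* stay at or below 0.4 with every other gene.

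Among 9993 genes past the filter over all kept cells, the genes most like *Fscn1* outside the 10 were *Atp1b2* (Pearson r 0.52), *Arf3* (0.50), *Cadm1* (0.50), *Iqcb1* (0.49) and *Polr1d* (0.49). Those most like *Cotl1* were *Rpl18* (0.43), *Ak1* (0.42), *Zmat2* (0.41), *Pfdn5* (0.41) and *Nrip2* (0.40). The closest gene was *Calm2*, a calmodulin, for *Actb* (0.73), *Rpl32*, a ribosomal protein gene, for *Tmsb4x* (0.73), and *Ldhb*, a lactate dehydrogenase subunit, for *Pfn2* (0.68). It was *Aldoa*, an aldolase, for both *Cfl1* (0.66) and *Marcks* (0.56), *Vamp2*, a synaptic vesicle protein gene, for *Actg1* (0.66), *Tceb2* for *Pfn1* (0.60) and Gm1821 for *Tmsb10* (0.55). *Fscn1* and *Cotl1* had the weakest closest genes, and all values are over the same kept cells.

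Of 77 other actin genes listed by role, 74 are in the table and 62 passed the filter in L4. There 4 were called higher in S1 and 2 lower, 9.68% of those that passed, beside 3.2% of all genes called and 1.89% called lower. The median difference was -0.01, beside 0.01 over all genes. Higher were *Add1*, an adducin that caps filaments (1.91 ± 1.50, SD over dates), *Actr3* of the Arp2/3 complex (1.25 ± 0.70), *Tmod1*, a tropomodulin (1.17 ± 0.90), and *Cfl2*, the second cofilin (1.08 ± 1.24). Lower were *Arpc3*, another Arp2/3 subunit (-1.43 ± 1.43), and *Ssh2*, a phosphatase that activates cofilin (-1.20 ± 1.12). *Actr3* and *Arpc3* of the Arp2/3 complex were thus called in opposite directions, and its other listed subunits were not called. None of the 8 other bundling and crosslinking genes past the filter was called.

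In L5, 46 of the 77 passed and 7 were called higher in S1 and 4 lower, 23.9% of those that passed, beside 12.7% of all genes called and 4.15% called lower. The median difference was 0.11, beside 0.24 over all genes. The list was fixed with earlier results of these data known, and nothing particular to it is read from these shares. The 5 largest that were higher were *Mkl2*, a coactivator of serum response factor (2.87 ± 0.98), the formin *Daam1* (2.28 ± 1.58), *Enah*, which elongates filaments (1.93 ± 0.51), *Cfl2* (1.71 ± 0.62) and *Coro1c*, a coronin (1.63 ± 0.53). Lower were *Gap43* of growth cones (-2.16 ± 0.91), *Add1* (-1.46 ± 0.53), *Twf2*, a twinfilin that binds monomers (-1.26 ± 0.99), and *Arpc5l* (-1.13 ± 0.86). *Cfl2* was called higher in S1 in both layers, while *Cfl1* stood at 0.05 in L4 and -0.33 in L5. *Add1* was called in opposite directions in L4 and L5, and the difference between layers was not tested. Between layers 55 passed, none was called higher in L5, and *Fmn1*, a formin, was called lower, 1 of the 55 beside 4.84% of all genes called (-2.56 ± 0.66, SD over 5 strata).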

How the data were processed

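Single-cell RNA-seq of 118 SOM+ cells was analysed by area and layer. Reads were aligned by the authors to mm10 with STAR (2.4.2a, per the labels) after bcl2fastq (2.20). The authors deposited read counts per gene without normalization, which served every result, and RPKM values from rpkmforgenes with RefSeq models, which served levels between genes and 1 alternative. The 24490 entries were summed to 23998 symbols.

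Counts were scaled to the total of each cell and used as log2(CPM + 1), pseudocount 1. Differences are of means over kept cells. Called genes had a size of at least 1 and 1 sign on every date with at least 2 cells of each group, among genes that reached 32 counts in 10 or more cells. For layers, the V1 and S1 differences of dates 3 to 6 were averaged. The labels name no animal, so no test was run. The members and lists were chosen with earlier results of these data known. Named were the 10 genes, the 5 genes most like *Fscn1* and *Cotl1* and the 1 most like each other member by Pearson r, and at most the 5 largest calls each way of an actin list. *Diaph1*, *Diaph2* and *Diaph3* of that list were not analysed here. Marker lists were of interneurons, excitatory neurons, microglia, astrocytes, oligodendrocytes and vessels, with a median interneuron sum of 3993 CPM in V1 and 4156 in S1 in L4, and 5059 and 3729 CPM in L5. The excitatory list had medians of 335 CPM in V1 and 244 in S1 in L4, and 178 and 267 CPM in L5. Thinning drew 250000 reads per cell with the random seed 1, and 3 L5 cells were too shallow. Intervals are 95% Clopper-Pearson over cells taken as independent draws, and leave out the spread between animals and dates.

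Coordinates are of GENCODE M21 on GRCm38, promoters of RefSeq. TMM factors came from edgeR 4.0.16 (R 4.3.3), figures from matplotlib 3.10.9, and all else from pandas 2.3.3, SciPy 1.17.1 and NumPy 2.4.6 under Python 3.11.15.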

Additional observations from a re-analysis of the deposited data

How the results depend on the processing

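The *Fscn1* difference in L4 was below 0 under every alternative run, from -3.10 to -4.05 when each date was left out in turn, -2.93 in the first and -4.27 in the second series of dates, and it moved by more than its SD over dates once, to -1.56 as a log2 ratio of pooled CPM. The *Cotl1* difference in L5 was below 0 under every alternative run, from -2.42 to -3.68 with each date left out. Members called in L4 were 0 with medians over cells, 2 in the second series (with *Pfn2*), and 1 with each date left out, as with all. Members called in L5 were 1 with pooled CPM and 1 with a size of at least 2, and 2 to 4 with each date left out. Between layers 0 to 1 were called with each date left out. Of the other member differences, 26 of 520 values moved by more than the SD over dates, 19 of the 26 in cells with little microglia RNA. The only called one of these, *Pfn1* in L5, was below 0 in all 17 alternatives. Of the uncalled ones some kept their sign and others did not, such as *Actg1* in L4, below 0 in 12 and above 0 in 11. TMM scaling moved the median of all L5 genes from 0.24 to 0.32. Without the gene filter 1.79%, 7.54% and 2.75% of genes were called in L4, L5 and between layers. The second series has no L5 cells, and calls need 2 dates, which the cells with little microglia RNA do not give. The cause of these changes was not tested. Averaged over the differences within dates, *Fscn1* in L4 was at -2.78 and *Cotl1* in L5 at -3.30. Both genes were selected on these differences in the same cells, so their sign under the alternatives is a description and supports nothing.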

Other observations

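The 4 S1 L4 cells with no *Sst* read, which were left out of every comparison, had a *Fscn1* read in 4 of 4 cells, at 41.8, 74.8, 122.1 and 287 CPM. In the kept S1 L4 cells 19 of 34 had one. *Tmsb4x* lay between 507 and 920 CPM and *Actb* between 1079 and 2117 CPM in these cells, within the range of the kept S1 L4 cells. *Pfn1* lay between 82.6 and 172.1 CPM, *Cotl1* was at 0 in 1 of the 4 and at most 65.6 CPM, and *Marcks* had a read in 2 of them.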
